A study of Mus musculus with 6 samples.

Results

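Chemokines are small secreted proteins that direct the movement of leukocytes, and 10 of them were examined: Ccl2, Ccl3, Ccl4, Ccl5, Ccl6, Ccl7, Ccl9, Cxcl2, Cxcl10 and Cxcl16. They were taken by gene name from a count table of 54532 mouse genes. All 10 were found and all 10 were among the 13156 genes with enough counts to be tested. The choice of genes used no measured value, although results of these data were known when it was made.

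The CC and CXC families differ in whether the first cysteines of the mature protein stand side by side or have another residue between them. Chemokines bind G-protein-coupled receptors on the responding cell, and most CC members draw monocytes, macrophages and lymphocytes, whereas Cxcl2 draws neutrophils. In macrophages several of these genes are induced within hours of an inflammatory signal, through NF-kB and interferon-regulated factors, and their mRNAs are short-lived. Others, such as Ccl6, Ccl9 and Cxcl16, are made steadily by resting macrophages.

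RNA was sequenced from RAW 264.7 cells, a mouse macrophage line from a virus-induced tumour, after 3 days on alloys that all carried a CaP (calcium phosphate) coating and contained zinc. Each of 3 groups had 2 libraries: CaP Zn0.8Mn0.1Li, whose alloy holds both manganese and lithium, CaP Zn0.8Mn, whose alloy holds manganese, and CaP Zn with neither. The labels give no uncoated alloy and no culture plastic, so every comparison is between coated alloys. The labels do not say whether the 2 libraries of an alloy came from separate cultures. The p-values thus reflect no more than the scatter of these libraries, and that scatter may be technical. In bulk RNA from cells, fewer cells that express a gene and less RNA per cell cannot be told apart.

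Library totals ran from 14944070 to 17709290 counts. CaP Zn0.8Mn replicate 1 stood apart, with 7.88% of counts on mitochondrial genes, where the other 5 libraries had 1.82% to 2.15%. Across genes its log2 CPM (counts scaled to library size) correlated with each other library at 0.903 to 0.922, whereas the other 5 correlated with one another at 0.989 to 0.992. Results are therefore given for all 6 libraries and again for the 5 without it. The macrophage markers Lyz2, Csf1r, Cd68 and Adgre1 were detected in every library. Lyz2 was at 5861 CPM in the library that stood apart and at 9182 to 14549 CPM in the rest. Of the 10 macrophage markers listed 9 were tested, while Mertk had too few counts (0 to 14). The neutrophil list summed to 0.264 CPM in CaP Zn0.8Mn replicate 1, mostly from Elane (3 counts), and to 0.860 to 2.17 CPM in the rest, mostly from S100a8. Marker lists for T cells, B cells, fibroblasts and endothelium each summed to at most 0.463 CPM, and the epithelial list was at 0 counts throughout.

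The 10 genes spanned almost 3 orders of magnitude in FPKM, a level per gene length that allows genes to be set against one another. Ccl3, a ligand of the receptor Ccr1, was far above the rest in 5 of the 6 libraries, with 1207 and 1081 FPKM on CaP Zn0.8Mn0.1Li, 102 and 1177 FPKM on CaP Zn0.8Mn, and 864 and 1094 FPKM on CaP Zn. It ranked between 38 and 48 among all genes of 5 libraries and 350 in CaP Zn0.8Mn replicate 1. Outside that library Ccl3 gave 69.6% to 71.7% of the summed FPKM of the 10 genes, and inside it 33.8%.

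In the 5 libraries without CaP Zn0.8Mn replicate 1, Ccl9 had a median of 197 FPKM (146 to 211) and Ccl4 one of 147 FPKM (137 to 167). Ccl9 is a rodent CC chemokine that acts on Ccr1, and Ccl4 is a close relative of Ccl3. The ranges of this pair overlap, although Ccl9 was the higher of the pair in 6 of 6 libraries. Cxcl2, a neutrophil attractant, had a median of 68.3 FPKM (60.8 to 83.8). Cxcl16, made as a membrane-anchored protein that binds Cxcr6, had 19.2 FPKM (16.7 to 20.9), and Ccl2, the main attractant of Ccr2-bearing monocytes, 10.1 FPKM (8.92 to 16.3). Each of these 3 lay apart from its neighbours in the order. Ccl5, a ligand of Ccr1 and Ccr3, came next with 4.24 FPKM (3.25 to 5.44). Ccl6 (median 2.23 FPKM), Ccl7 (1.53 FPKM) and Cxcl10 (1.49 FPKM) closed the order, and the ranges of neighbours among these last 3 overlap.

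**Figure D1:**
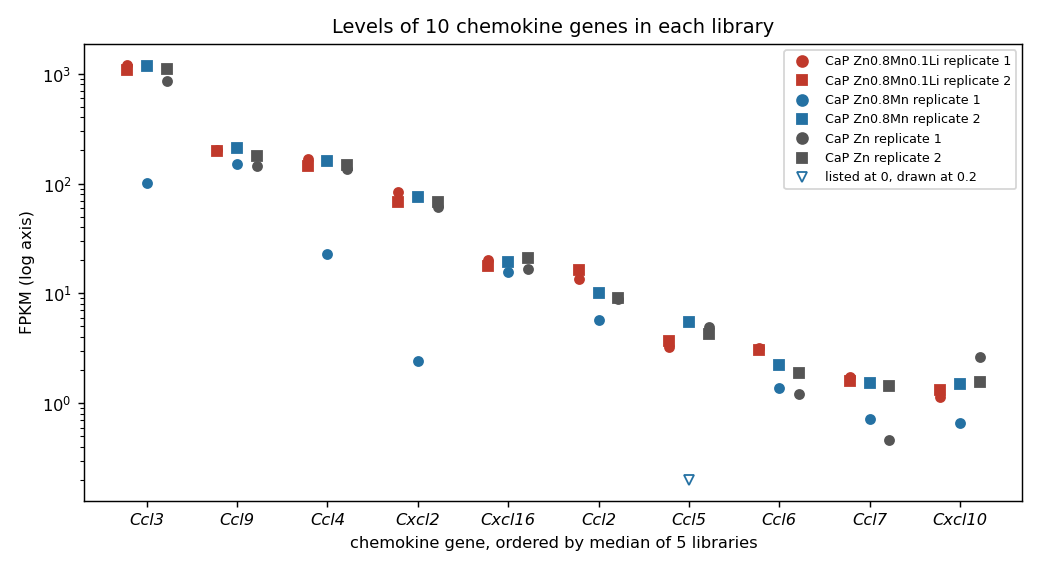
Deposited FPKM of the 10 chemokine genes (log axis) in each of the 6 libraries, with colour for the alloy and shape for the replicate. Ccl3 lay between 864 and 1207 FPKM in 5 libraries and at 102 FPKM in CaP Zn0.8Mn replicate 1, where Ccl5 is listed at 0.

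The 5 libraries without CaP Zn0.8Mn replicate 1 differed little for the abundant genes. The coefficient of variation of CPM was 7.98% for Ccl4, 8.76% for Cxcl16, 12.1% for Cxcl2, 12.2% for Ccl3 and 13.7% for Ccl9. It was 20.9% for Ccl5, 27.9% for Ccl2, 35.7% for Ccl6, 36.4% for Cxcl10 and 37.4% for Ccl7. These 5 libraries span the 3 alloys, so the values mix differences between alloys with scatter between libraries. Counting error alone gives 23.8% for Ccl7, which had 7 to 23 counts in these libraries, but 6.76% for Ccl2 and 0.853% for Ccl3.

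Cxcl2 and Cxcl10 lie on mouse chromosome 5 and the other members on chromosome 11 (GRCm38). Ccl2 (chr11:82035571-82037453, plus strand) and Ccl7 (chr11:82045712-82047525, plus) are neighbours. Ccl5 (chr11:83525778-83530518, minus), Ccl9 (chr11:83572919-83578636, minus), Ccl6 (chr11:83587882-83593087, minus), Ccl3 (chr11:83647844-83649355, minus) and Ccl4 (chr11:83662584-83664683, plus) form a second cluster. Cxcl16 (chr11:70453983-70459984, minus) lies outside both clusters. On chromosome 5, Cxcl2 is at chr5:90903871-90905938 (plus) and Cxcl10 at chr5:92346638-92348889 (minus). An annotated gene on the opposite strand overlaps Cxcl16 (Zmynd15, 20 to 69 counts), Ccl6 (E230016K23Rik, 2 to 19 counts), Cxcl10 (Art3, 1 to 5 counts) and Ccl2 (Gm17268, 0 counts in every library). The strand setting of the counting is not stated, so reads of such a pair cannot be told apart.

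RefSeq promoter windows were at hand for 5 of the 10 genes, and 4 are shown. Cxcl2 and Ccl3 had the deepest gaps between CaP Zn0.8Mn replicate 1 and the other libraries among genes with counts in every library, Ccl9 one of the smallest, and Cxcl10 was the CXC gene with lower values on CaP Zn0.8Mn0.1Li than on CaP Zn. Each window holds up to 250 bases before the RefSeq start, in build GRCm38.p6, read 5′ to 3′ on the gene's strand, with motif matches in capitals. The windows are chr5:90903649-90903870 (plus) for Cxcl2, cut at the deposited gene start, chr5:92348890-92349139 (minus) for Cxcl10, chr11:83578637-83578886 (minus) for Ccl9 and chr11:83649379-83649628 (minus) for Ccl3.
Cxcl2: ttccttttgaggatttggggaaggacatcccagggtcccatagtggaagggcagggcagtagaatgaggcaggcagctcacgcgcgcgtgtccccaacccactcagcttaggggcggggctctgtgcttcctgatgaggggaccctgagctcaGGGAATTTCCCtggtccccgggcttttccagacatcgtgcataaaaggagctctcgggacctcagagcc
Cxcl10: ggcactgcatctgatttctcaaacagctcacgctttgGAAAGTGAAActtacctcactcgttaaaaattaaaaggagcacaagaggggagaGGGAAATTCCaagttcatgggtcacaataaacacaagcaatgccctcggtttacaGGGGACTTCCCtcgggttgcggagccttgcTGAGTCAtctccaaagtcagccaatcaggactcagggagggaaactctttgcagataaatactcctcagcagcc
Ccl9: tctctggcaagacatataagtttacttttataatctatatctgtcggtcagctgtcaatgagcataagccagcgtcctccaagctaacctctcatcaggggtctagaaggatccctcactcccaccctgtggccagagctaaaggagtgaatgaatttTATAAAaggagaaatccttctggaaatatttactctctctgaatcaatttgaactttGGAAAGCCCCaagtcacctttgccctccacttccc
Ccl3: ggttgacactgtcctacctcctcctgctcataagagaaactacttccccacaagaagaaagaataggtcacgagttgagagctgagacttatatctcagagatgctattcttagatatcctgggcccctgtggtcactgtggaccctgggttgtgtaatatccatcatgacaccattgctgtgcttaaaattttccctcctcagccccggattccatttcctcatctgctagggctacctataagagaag

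The motifs searched were the kappaB consensus, the interferon-stimulated response element (ISRE, GAAA and GAAA with any 2 bases between), AP-1 (TGACTCA) and C/EBP (TTGCNNAA) on both strands, and the TATA box (TATAAA) on the gene's strand. Cxcl2 held a kappaB match 97 bases before its RefSeq start (GGGAATTTCC, with an overlapping match GGAATTTCCC at 96). Cxcl10 held kappaB matches at 159 (GGGAAATTCC) and at 104 and 103, where GGGGACTTCC and GGGACTTCCC overlap. It also held an ISRE match at 213 (GAAAGTGAAA) and an AP-1 match at 74 (TGAGTCA, the opposite strand). Ccl9 held a kappaB match on the opposite strand at 35 (GGAAAGCCCC) and a TATA box at 92. The Ccl3 and Ccl6 windows held none of these letters, and no member's window held the C/EBP motif. Of 32851 windows of 250 bases, 7.25% held a kappaB match, 2.98% an ISRE, 4.46% an AP-1, 9.56% a C/EBP and 7.59% a TATA match. A match is a run of letters and no measure of binding.

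CaP Zn0.8Mn replicate 1 had the lowest value of 7 of the 10 chemokines, against 41.9% of all tested genes. Cxcl2 showed the widest gap, with 5.15 CPM there and 127 to 174 CPM in the other 5 libraries, 28.7-fold below their mean. Ccl3 had 80.1 CPM against 669 to 930 CPM, 10.4-fold below their mean, and Ccl4 15.5 CPM against 91.1 to 111 CPM, 6.46-fold below. These 3 genes are among the fast-induced inflammatory chemokines, but induction was not measured, and its part in these gaps was not tested. In the other 5 libraries they were 3 of the 4 most abundant members in CPM together with Ccl9.

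Ccl5 had 0 counts in that library and 52 to 90 counts in the others. A count of 0 allows up to 3 counts, or 0.198 CPM, so Ccl5 was at least 21.0-fold below the mean of the other 5 (4.17 CPM). Cxcl10, the interferon-inducible ligand of Cxcr3 on T cells, had 1.52 CPM there and 2.60 to 6.02 CPM elsewhere, 2.43-fold below the mean. Ccl2 had 6.67 CPM there and 10.3 to 18.8 CPM elsewhere, 1.99-fold below.

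Ccl6, Ccl7, Ccl9 and Cxcl16 stood closer to the other libraries. Ccl9 had 469 CPM in CaP Zn0.8Mn replicate 1, inside the 448 to 644 CPM of the other 5. Ccl6 had 2.51 CPM (2.20 to 5.74 CPM elsewhere) and the low-count Ccl7 0.595 CPM (0.376 to 1.39 CPM elsewhere), and both also lay inside the range. Cxcl16, at 48.2 CPM, was just under the 51.1 to 63.4 CPM of the others. In all, 5 of the 10 were over 2-fold below the mean of the other libraries and none was over 2-fold above, while 18.2% of all tested genes were over 2-fold below and 15.4% over 2-fold above. The median difference in log2 CPM was -1.03 for the 10 genes and 0.0089 for all tested genes.

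The members' proportions differed as well. The ratio of Ccl3 to Ccl9 counts was 0.171 in CaP Zn0.8Mn replicate 1 and 1.38 to 1.54 in the other 5 libraries, and Ccl9 in place of Ccl3 was its most abundant member, at 49.8% of the summed FPKM against 11.7% to 12.8%. The ratio of Ccl3 to Ccl4 counts was 5.16 there and 7.34 to 8.73 elsewhere. Together the 10 genes took 0.0637% of the counts of that library, against 0.148% to 0.188% of the others. CaP Zn0.8Mn replicate 2 lay with the other alloys in each of these measures, so the difference was between replicates of an alloy. No label sets this library apart, and the part of its high mitochondrial share in these values was not tested.

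Genes that act around the chemokines were read in CaP Zn0.8Mn replicate 1 in the same way, beside the 18.2% of all tested genes over 2-fold lower there and the 15.4% over 2-fold higher. Of 24 regulators of chemokine induction, activators and feedback inhibitors alike, 10 were over 2-fold lower and 0 over 2-fold higher. Nfkbia, which encodes the NF-kB inhibitor I-kappa-B-alpha, had 56.5 CPM against 134 to 185 CPM. Among them were the cytokine Tnf (14.0 CPM against 112 to 154 CPM) and 3 transcription factors, which were the most abundant of the list: Irf7 with 81.3 CPM against 310 to 380 CPM, Junb with 63.4 CPM against 213 to 285 CPM, and Atf3 with 75.3 CPM against 127 to 207 CPM. The NF-kB subunit Rela, by contrast, had 43.5 CPM against 31.4 to 37.0 CPM, and Nfkb1 137 CPM against 113 to 133 CPM. Nfkbia, Tnf and the NF-kB subunits, and Gnb2, Gnai3, Gng2 and Mmp9 below, were named after their values were seen.

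Of 9 genes in the control of mRNA decay, 4 were over 2-fold lower in that library and 0 higher. Zfp36, which binds AU-rich elements and speeds the decay of cytokine mRNAs, had 20.2 CPM against 134 to 189 CPM. Rc3h1, another decay factor, had 135 CPM against 224 to 310 CPM, and the splicing and decay factor Khsrp 221 CPM against 136 to 154 CPM. Of 20 genes of receptor signalling 3 were lower and 4 higher by this measure, near the shares of all tested genes, and their median log2 difference was -0.05. Rac2 had 394 CPM against 754 to 870 CPM, while the G-protein subunit genes Gnai2 (640 CPM against 567 to 654 CPM) and Gnb1 (437 CPM against 448 to 519 CPM) were close to the other libraries. Other subunit genes lay further below them: Gnb2 (210 CPM against 470 to 525 CPM), Gnai3 (164 CPM against 205 to 216 CPM) and Gng2 (43.6 CPM against 56.7 to 68.4 CPM).

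Of 8 tested receptor genes, 5 were over 2-fold higher in CaP Zn0.8Mn replicate 1 and 0 lower. Cx3cr1, the receptor of fractalkine, had 592 CPM against 13.2 to 26.8 CPM. Ccr1, the receptor shared by Ccl3, Ccl5, Ccl6, Ccl7 and Ccl9, had 4.49 CPM against 1.09 to 2.17 CPM, and the atypical receptor Ccrl2 3.30 CPM against 1.45 to 4.23 CPM. Among further ligands, 6 of 29 were tested and 4 were over 2-fold lower in that library. Mif, a cytokine that binds chemokine receptors, had 262 CPM against 975 to 1185 CPM. Pf4, the platelet factor, had 4.69 CPM against 6.72 to 11.7 CPM, and Cklf 11.8 CPM against 10.5 to 12.2 CPM. Of 7 tested genes for chemokine processing, 1 was over 2-fold lower, the protease Mmp9 with 6.67 CPM against 26.6 to 82.7 CPM, and 1 over 2-fold higher, the sheddase Adam17 with 375 CPM against 135 to 151 CPM, and the median log2 difference was -0.18. The cathepsin gene Ctsd had 687 CPM against 932 to 1497 CPM and Ctss 677 CPM against 666 to 835 CPM. Marker lists differed in this library too. The macrophage list summed to 9608 CPM against 11104 to 16752 CPM, of which Lyz2 made up 5861 CPM against 9182 to 14549 CPM. Of its 9 tested genes, 1 was over 2-fold lower (Lyz2) and 2 over 2-fold higher. Csf1r, among the higher, had 1598 CPM against 319 to 374 CPM. The median log2 difference of the 9 genes was 0.52, so the lower sum does not describe most of the list. The dendritic cell list summed to 21.7 CPM against 3.01 to 8.75 CPM, most of it from Itgax with 17.5 CPM against 1.88 to 5.74 CPM. Of its other genes, Zbtb46 had 2.91 CPM against 1.08 to 2.78 CPM, Clec9a 0.661 CPM against 0 to 0.181 CPM and Xcr1 0.595 CPM against 0 to 0.0604 CPM, while Flt3 had 0 counts in this library and Siglech in every one. The osteoclast list summed to 119 CPM against 136 to 208 CPM, with 2 of its 6 tested genes over 2-fold lower and 2 over 2-fold higher. Its Acp5, an acid phosphatase, had 6.01 CPM against 36.8 to 52.1 CPM, and the fusion genes Dcstamp and Ocstamp had 26.6 CPM against 5.44 to 8.06 CPM and 3.63 CPM against 0.323 to 0.845 CPM. Their part in the chemokine values was not tested.

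**Figure D2:**
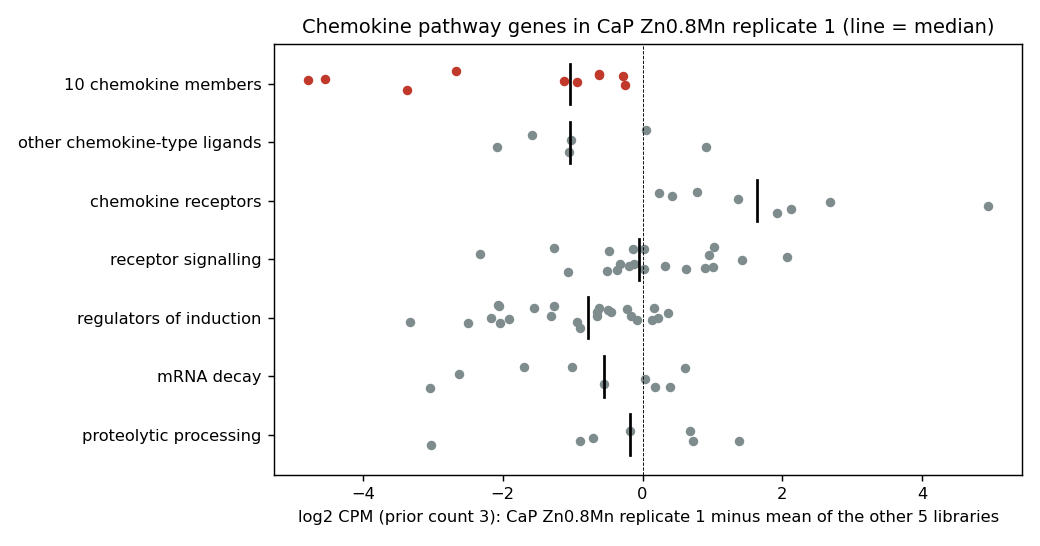
Difference in log2 CPM (prior count 3) between CaP Zn0.8Mn replicate 1 and the mean of the other 5 libraries, with 1 point per tested gene and a line at each list's median. The chemokine members have a median of -1.03 and the receptors one of 1.65.

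The first comparison asked which chemokines differed between the alloy with manganese and lithium and plain coated zinc. Ccl2 had 15.4 and 18.8 CPM on CaP Zn0.8Mn0.1Li, against 10.3 and 10.4 CPM on CaP Zn. Ccl6, a rodent CC chemokine that acts on Ccr1, had 5.74 and 5.56 CPM against 2.20 and 3.39 CPM. For both genes each library on CaP Zn0.8Mn0.1Li lay above each on CaP Zn.

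With all 6 libraries, edgeR called 0 of 13156 genes in this comparison (0% called) and 0 of the 10 chemokines, with 29 genes (0.22%) at an unadjusted p under 0.05, Ccl6 among them. DESeq2 and limma-voom called 0 genes as well. The log2 fold change of Ccl2 was 0.72 (SE 0.33) and that of Ccl6 1.02 (SE 0.41), each with an edgeR adjusted p of 1.00. Without CaP Zn0.8Mn replicate 1, which belongs to neither group but enters the shared estimate of spread, the fold changes hardly moved and the errors shrank. Ccl2 was then 1.65-fold higher (95% interval 1.30 to 2.10, log2 0.72, SE 0.16, edgeR adjusted p = 0.423). Ccl6 was 2.04-fold higher (1.37 to 3.03, log2 1.03, SE 0.27, edgeR adjusted p = 0.545). That fit again called 0 genes, with 660 (5.02%) at an unadjusted p under 0.05, and 5 of the 10 chemokines were among them (Ccl2, Ccl6, Ccl9, Cxcl2 and Cxcl10).

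Of the fits run for this comparison, 1 called Ccl2. When CaP Zn replicate 1 was left out as well, a choice made after the values were seen, its log2 fold change was 0.71 (SE 0.19, edgeR adjusted p = 0.0423), with 47 of 13156 genes called (0.357%). That fit holds 4 libraries, with 1 residual degree of freedom and a lone CaP Zn library that is assumed to vary like the other groups. In every other fit run for this comparison that gave Ccl2 an adjusted p, it lay between 0.423 and 1.00. The other 9 chemokines were not called in it.

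The remaining members differed less or had few counts. Ccl7, which shares Ccr2 with Ccl2, had 1.39 and 1.28 CPM on CaP Zn0.8Mn0.1Li, against 0.376 and 1.15 CPM on CaP Zn, from 7 to 23 counts. Ccl9 had 620 and 605 CPM against 448 and 546 CPM, and Cxcl2 174 and 143 CPM against 127 and 140 CPM. These 3 genes, like Ccl2 and Ccl6, did not overlap between the alloys, so 5 of the 10 lay wholly above CaP Zn, where 16.7% of all tested genes did. CaP Zn replicate 1 had the lowest of the 6 values for Ccl6, Ccl7 and Ccl9. It was also the library most correlated with CaP Zn0.8Mn replicate 1, at 0.922 against 0.903 to 0.910 for the others. The part of this likeness in the differences was not tested.

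Cxcl10 and Ccl5 lay the other way. Cxcl10 had 2.60 and 3.00 CPM on CaP Zn0.8Mn0.1Li, against 6.02 and 3.52 CPM on CaP Zn, a log2 fold change of -0.77 with all 6 libraries (SE 0.51) and -0.78 with 5 (SE 0.30, edgeR adjusted p = 0.943). Ccl5 had 3.14 and 3.55 CPM against 4.84 and 4.09 CPM, with -0.42 in both fits (SE 1.41 and 0.25). These 2 of 10 lay wholly below CaP Zn, against 16.8% of tested genes. Ccl3 (930 and 836 CPM against 669 and 843 CPM), Ccl4 (111 and 95.7 CPM against 91.1 and 97.7 CPM) and Cxcl16 (61.3 and 54.1 CPM against 51.1 and 63.4 CPM) overlapped. The 95% interval of the fold change without CaP Zn0.8Mn replicate 1 ran from 0.971 to 1.40 for Ccl3, from 0.957 to 1.25 for Ccl4 and from 0.858 to 1.19 for Cxcl16. Of the 10 log2 fold changes 8 were positive, with a median of 0.23 in the 6-library fit, against 4.74e-05 over all tested genes.

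**Figure D3:**
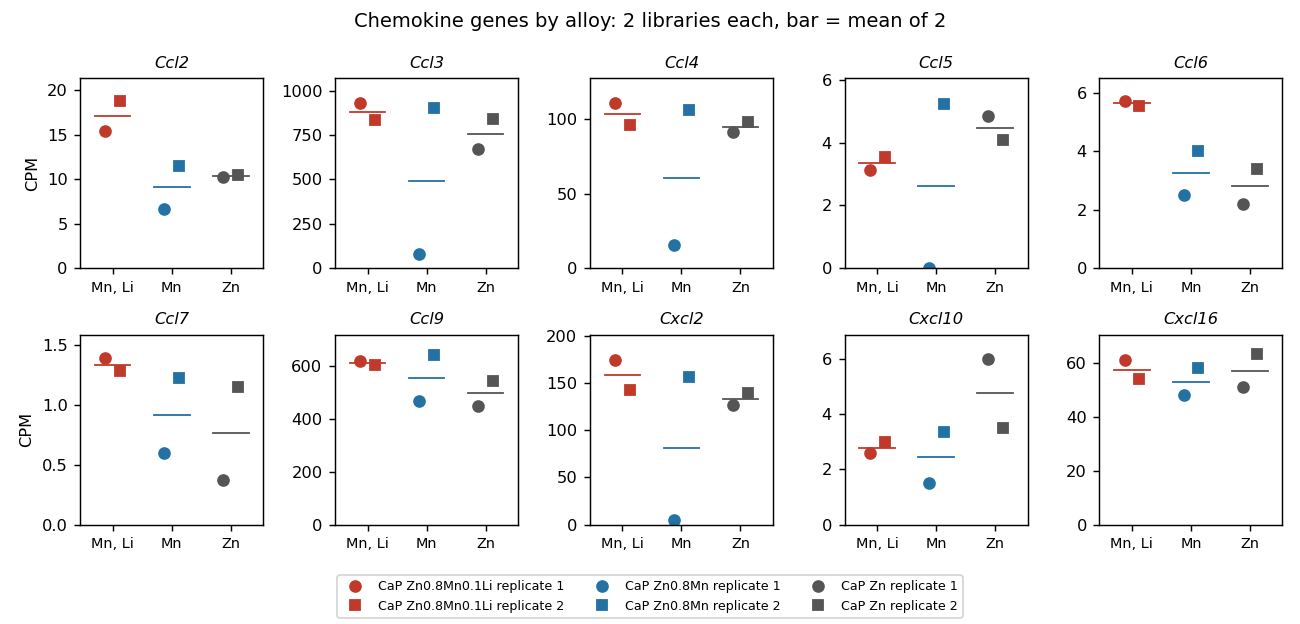
CPM of each chemokine gene in the 2 libraries of CaP Zn0.8Mn0.1Li (Mn, Li), CaP Zn0.8Mn (Mn) and CaP Zn (Zn), with a bar at the mean of 2; each panel has its own axis from 0. Both CaP Zn0.8Mn0.1Li libraries lie above both CaP Zn libraries for Ccl2 (15.4 and 18.8 against 10.3 and 10.4 CPM), and the CaP Zn0.8Mn libraries lie far apart for Ccl3, Ccl4 and Cxcl2.

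The alloy with manganese alone was also set against plain coated zinc, using the same CaP Zn libraries. For 5 of the 10 members (Ccl2, Ccl3, Ccl4, Ccl5 and Cxcl2) 1 of its libraries lay below both CaP Zn libraries and the other above both. Cxcl2 had 5.15 and 156 CPM on CaP Zn0.8Mn, against 127 and 140 CPM on CaP Zn, and Ccl3 80.1 and 905 CPM against 669 and 843 CPM. Ccl5 had 0 and 5.24 CPM against 4.84 and 4.09 CPM. Cxcl10 was the member whose libraries did not overlap, with 1.52 and 3.36 CPM against 6.02 and 3.52 CPM (1 of 10 lower, against 12.8% of tested genes, and 0 higher, against 12.5%).

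With 6 libraries, edgeR called 0 of 13156 genes (0% called) and 0 chemokines, with 207 genes (1.57%) and 0 chemokines at an unadjusted p under 0.05. DESeq2 called 1 gene and limma-voom 0. Cxcl10 had a log2 fold change of -0.97 (SE 0.52), and edgeR adjusted p-values of the 10 ran from 0.773 to 0.870. The median log2 fold change was -0.40, against 0.0048 over all tested genes, and 7 of the 10 were negative. Without CaP Zn0.8Mn replicate 1 the median was 0.23 and 9 of the 10 were positive, and Cxcl10 remained negative at -0.52 (SE 0.36). That fit has a lone CaP Zn0.8Mn library, assumed to vary like the other groups. It called 2 of all tested genes (0.0152%) and 0 chemokines, with 569 genes (4.33%) at an unadjusted p under 0.05, and 8 of the 10 chemokines lay wholly above CaP Zn (32% of tested genes) and 1 wholly below (32.8%). Ccl9 was the chemokine with an unadjusted p under 0.05, at a log2 fold change of 0.37 (SE 0.13, edgeR adjusted p = 0.967).

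The result depended on which CaP Zn0.8Mn library was kept. When replicate 2 was left out and replicate 1 was the lone library of its alloy, edgeR called 59.3% of all tested genes and 6 of the 10 chemokines, all lower than on CaP Zn (Ccl2, Ccl3, Ccl4, Ccl5, Cxcl2 and Cxcl10). The median log2 fold change was then -1.15. The share of chemokines called was close to that of all genes.

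Adding lithium to the manganese alloy was the last comparison, and it shares its CaP Zn0.8Mn0.1Li and CaP Zn0.8Mn libraries with those above. Ccl2 had 15.4 and 18.8 CPM on CaP Zn0.8Mn0.1Li, against 6.67 and 11.5 CPM on CaP Zn0.8Mn. Ccl6 had 5.74 and 5.56 CPM against 2.51 and 4.01 CPM, and Ccl7 1.39 and 1.28 CPM against 0.595 and 1.23 CPM. These 3 of 10 lay wholly above CaP Zn0.8Mn, against 17.1% of tested genes, and 0 lay wholly below, against 17.5%.

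With 6 libraries, edgeR called 0 of 13156 genes (0% called) and 0 chemokines, with 316 genes (2.4%) at an unadjusted p under 0.05. DESeq2 called 3 genes and limma-voom 0. Ccl2 had a log2 fold change of 0.91 (SE 0.33) and was the member with an unadjusted p under 0.05. Adjusted p-values from edgeR ran from 0.680 to 0.906 over the 10 genes. All 10 log2 fold changes were positive, with a median of 0.66 against -0.0019 over all tested genes. Without CaP Zn0.8Mn replicate 1, 4 of the 10 were positive and the median was -0.025. Ccl2 then had 0.57 (SE 0.20) and Ccl5 -0.65 (SE 0.30), each with an edgeR adjusted p of 1.00, and these were the chemokines with an unadjusted p under 0.05 (416 genes, 3.16%). The fit called 2 of all tested genes (0.0152%) and 0 chemokines. Of the 10, 3 lay wholly above the remaining CaP Zn0.8Mn library (33.5% of tested genes) and 3 wholly below (34.4%). With CaP Zn0.8Mn replicate 1 as the lone library of its alloy, edgeR called 61.5% of all tested genes and 7 of the 10 chemokines, which were the 6 above with Ccl6 and Ccl9 in place of Cxcl10. The median log2 fold change was then 1.26.

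Ccl2, Ccl6 and Ccl7, grouped after their values were seen, had their 2 highest values of the 6 libraries on CaP Zn0.8Mn0.1Li (3 of 10, against 6.37% of tested genes). Their log2 fold changes were positive against both other alloys, with 6 libraries and with 5. That sign follows from how the 3 were grouped and adds no support. None of the 3 was called by edgeR with 6 libraries, or against CaP Zn with 5.

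**Figure D4:**
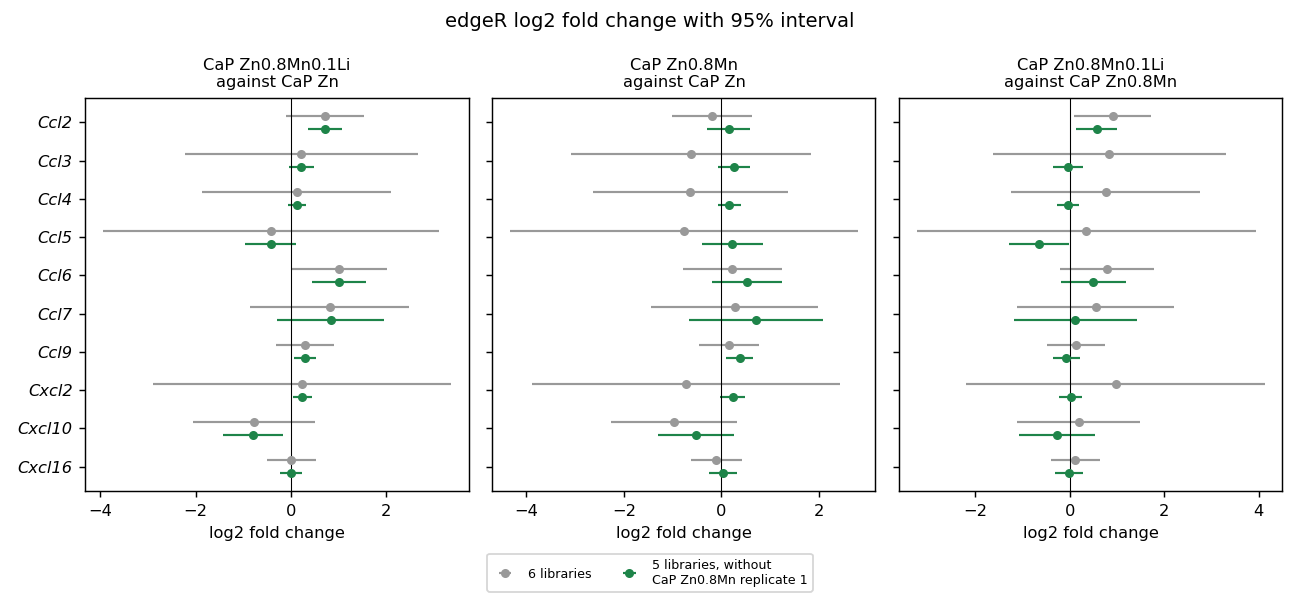
Log2 fold changes with 95% intervals from edgeR for the 10 chemokine genes in 3 comparisons of alloys, with 6 libraries (grey) and without CaP Zn0.8Mn replicate 1 (green). The 6-library intervals of Ccl3, Ccl4, Ccl5 and Cxcl2 are wide, and the points of these genes change sign between the fits in the 2 comparisons that involve CaP Zn0.8Mn, except Cxcl2 in the comparison on the right.

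Around the chemokines, 74 genes of the 6 pathway lists were tested, and edgeR called 0 of them in each of the 3 comparisons, with 6 libraries and with 5. In the comparison of CaP Zn0.8Mn0.1Li with CaP Zn, their median log2 fold changes in the 6-library fit were 0.08 for further ligands, 0.27 for receptors, 0.03 for receptor signalling, 0.05 for regulators of induction, 0.03 for mRNA decay and 0.44 for proteolytic processing. Cx3cr1 had 13.2 and 14.7 CPM on CaP Zn0.8Mn0.1Li, against 24.7 and 19.2 CPM on CaP Zn. Without CaP Zn0.8Mn replicate 1 its log2 fold change was -0.66 (edgeR adjusted p = 0.423). Ctsd, a lysosomal protease, had 1424 and 1432 CPM against 932 and 1178 CPM, with 0.44 (adjusted p = 0.684). Ccr2, the receptor of Ccl2 and Ccl7, had 0.483 and 0.734 CPM on CaP Zn0.8Mn0.1Li, against 0.538 and 0.384 CPM on CaP Zn.

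Among 7295 other genes with a mean of at least 20 CPM, the 5 whose centred log2 CPM lay nearest to the median profile of the 10 chemokines over the 6 libraries were Trp53inp1, Fgfr1op, Qsox1, Zfp367 and Atxn1. Their root-mean-square distances were 0.124 to 0.127 on the log2 scale. All 5 had their lowest value in CaP Zn0.8Mn replicate 1, as in Trp53inp1 with 23.8 CPM there and 48.9 to 63.8 CPM elsewhere. That follows from how they were picked, since the median profile itself is lowest in that library (-0.859). The likeness is a description over 6 libraries and carries no test.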

How the data were processed

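Polyadenylated RNA of 6 libraries was sequenced. The authors deposited whole-number read counts per gene without normalization, used in every test, and FPKM values, used for levels between genes. The submitters' processing notes name mm9, but 53499 of 54409 matched gene IDs (98.3%) have GRCm38 positions in the deposited table, and these are printed. Not given in the sources used here were aligner, counting program and strand setting. The tables hold 0 columns of other samples. Groups came from the treatment label. CPM were scaled with TMM factors (0.973 to 1.05).

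Differences were tested with edgeR 4.0.16 in R 4.3.3 (robust quasi-likelihood, two-sided, filterByExpr, 13156 genes, 3 residual degrees of freedom, 2 without CaP Zn0.8Mn replicate 1). Benjamini-Hochberg adjusted p under 0.05 counted as a call. The fit was also run on simulated counts with known fold changes. No simulated library was made to stand apart, so that run does not test calls in the presence of such a library. Log2 fold changes are first-named over second-named group. DESeq2 1.42.0, limma-voom (limma 3.58.1) and the settings below were alternatives. Intervals and the floor of 3 counts cover counting error or spread between libraries only. Replicate counts differed beyond sampling noise (chi-square per gene 5.71 for CaP Zn0.8Mn0.1Li, 248 for CaP Zn0.8Mn and 10.6 for CaP Zn). Members, lists and tests were chosen with earlier results of these data known. Named were all members, the 3 tested genes of highest mean CPM in each list, and the 5 most alike genes. Other names were chosen after their values were seen.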

Additional observations from a re-analysis of the deposited data

How the results depend on the processing

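Results that involve CaP Zn0.8Mn rested on its replicates. Leaving out each library in turn, in CaP Zn0.8Mn against CaP Zn the genes called ran from 0 to 7808, chemokines called from 0 to 6 and their median log2 fold change from -1.15 to 0.23. For CaP Zn0.8Mn0.1Li over CaP Zn0.8Mn they ran from 0 to 8096, from 0 to 7 and from -0.025 to 1.26. The highest counts came without CaP Zn0.8Mn replicate 2, and the medians' extremes without its replicate 2 and its replicate 1. In the first comparison members changed sign within these ranges: Ccl2 -0.64 to 0.15, Ccl3 -3.25 to 0.26, Ccl4 -2.61 to 0.17, Ccl5 -9.21 to 0.22, Ccl6 -0.15 to 0.56, Ccl7 -0.33 to 1.26, Ccl9 -0.095 to 0.37, Cxcl2 -4.70 to 0.23 and Cxcl16 -0.25 to 0.059. In the second these were Ccl3 -0.035 to 3.46, Ccl4 -0.036 to 2.73, Ccl5 -0.65 to 8.78, Ccl9 -0.072 to 0.39, Cxcl10 -0.27 to 0.88 and Cxcl16 -0.014 to 0.26. Fitted values of Ccl5 against a library at 0 depend on the prior count and are no bound. In CaP Zn0.8Mn0.1Li against CaP Zn, 0 to 47 genes and 0 to 1 chemokines were called, the highest without CaP Zn0.8Mn replicate 1 and CaP Zn replicate 1 together. There Cxcl16 ran from -0.14 to 0.17, with -0.091 without CaP Zn0.8Mn0.1Li replicate 1, and it was -0.027 with library totals only, while the other 9 chemokines kept their direction but not their size: Ccl7 ran from 0.21 to 1.81, Cxcl10 from -1.10 to -0.33 and Ccl6 from 0.73 to 1.35, with the ends of all 3 ranges reached by leaving out a CaP Zn replicate. DESeq2 without CaP Zn0.8Mn replicate 1 called 12 genes there. In CaP Zn0.8Mn against CaP Zn, DESeq2 and no filter on low counts called 1 gene each (Gapdh), log2(FPKM + 0.1) 1 (Snord42b) and the fit without CaP Zn0.8Mn replicate 1 2 (Gm10123 and Rpl7a-ps5). For CaP Zn0.8Mn0.1Li over CaP Zn0.8Mn, DESeq2 called 3 (Gapdh, Cx3cr1 and Tlr7), no filter 1 (Gapdh), log2(FPKM + 0.1) 1 (Snord42b) and the fit without CaP Zn0.8Mn replicate 1 2 (Gm10123 and mt-Rnr2). The cause was not tested. Over the other settings run with 6 libraries (RLE size factors, library totals only, DESeq2, limma-voom, filters, only the libraries compared, FPKM), 95 of 96 member values for CaP Zn0.8Mn0.1Li over CaP Zn and 96 of 96 in each of the other comparisons kept direction and call. Sizes moved more: in CaP Zn0.8Mn against CaP Zn, Cxcl2 ran from -2.22 to -0.72, Ccl5 from -3.41 to -0.76 and Ccl3 from -1.49 to -0.61, and for CaP Zn0.8Mn0.1Li over CaP Zn0.8Mn they ran from 0.97 to 2.46, from 0.34 to 2.99 and from 0.84 to 1.72. With the replicate number as a block, 0 genes were called in each comparison, and the median of the 10 was 0.31, -0.59 and 0.87. Deviations of same-numbered libraries correlated at -0.11, -0.38 and 0.40, so the numbers were not taken to pair them. Ccl7, Cxcl10, Ccl5 and Ccl6 had at most 112 counts in a library, which limits their precision.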

Other observations

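Many other chemokine genes had few or no counts. Of 29 further ligands, 6 passed the filter on low counts and 11 had 0 counts in every library, among them Ccl8, Ccl11, Ccl20, Cxcl5, Cxcl12 and Cxcl13. Ccl12, a rodent relative of Ccl2, had 5 and 6 counts on CaP Zn0.8Mn0.1Li, 0 and 2 counts on CaP Zn0.8Mn and 9 and 7 counts on CaP Zn. Cxcl11, which shares Cxcr3 with Cxcl10, had 2 and 13 counts on CaP Zn0.8Mn0.1Li, 4 and 5 counts on CaP Zn0.8Mn and 6 and 7 counts on CaP Zn. Cxcl1 and Cxcl3, which share Cxcr2 with Cxcl2, had 2 counts each in CaP Zn0.8Mn replicate 1 and 0 in the other 5 libraries. These genes were named after their values were seen.

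Chemokine receptors were scarce outside CaP Zn0.8Mn replicate 1. The 23 receptor genes summed to 620 CPM in that library, of which Cx3cr1 made up 592 CPM, and to 24.8 to 38.3 CPM in the other 5 libraries.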
